A study of Sus scrofa with 24 samples.

Results

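Circular RNAs (circRNAs) in the spleen of 120-day-old Meishan pigs were compared with those of 7-day-old piglets, written below as 120d vs. 7d. The comparison takes the 6 libraries whose labels give these ages out of the 24 libraries of the series, and all 3000 circRNAs of the count table. Each age was represented by 3 healthy pigs of the same breed, 1 library per pig, and each pig was sampled once, so young and older animals are different individuals. No treatment or genetic change was applied at either age. The whole spleen was used, without sorting, and pigs were otherwise grouped by days after birth alone.

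A circRNA forms when the spliceosome joins a downstream splice donor back to an upstream acceptor, which leaves a covalently closed ring without free ends. Rings of this kind are detected by reads that cross the back-splice junction, and they are slow to decay because exonucleases need a free end. The spleen filters blood and holds B and T lymphocytes in its white pulp, with macrophages and ageing red cells in its red pulp. In newborn mammals it can also hold cells that still make blood. The count of a circRNA follows both the transcription of its host gene and the back-splicing and decay of the ring, and the linear mRNA of the host genes was not measured here. In whole tissue, fewer cells of a type and less RNA per cell cannot be told apart.

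The junctions that the results turn on are given as 30 bases of the spliced RNA, written as DNA and taken from the RefSeq sequence of Sscrofa11.1. The lower-case letters are the last 15 bases of the donor exon and the capitals mark the first 15 bases of the acceptor exon, so the change of case is the back-splice itself. For circRNA_24032, whose ends are not both exon ends of 1 gene, they are the genomic bases on either side of the junction that the table gives. The first group comes from lymphocyte genes and an immunoglobulin locus, the next from erythroid and mitotic genes, and the last from both EZH genes and 1 gene with a shared donor.
circRNA_11685 (CD96): gatgtccttggaaagGAGGGTAATGGAACG
circRNA_30180 (CD22): agctggtcgtgcagtACACGCCGAAGTTGG
circRNA_38284 (RALGPS2): agaagattcaatcatGAATGAGAATGTACT
circRNA_38282 (RALGPS2): gccattcaaccagatGAATGAGAATGTACT
circRNA_24032 (immunoglobulin locus): tgctctgggtcccagGATCCGATGGGGCCA
circRNA_11343 (TFRC): acatggtcataaaagAAATATGGAACAAGA
circRNA_11324 (TFRC): acttttgctgagaagGTTCTTTTGTGTGGC
circRNA_20897 (SOX6): cagcaacagatccagGTACACCTGAGAGCC
circRNA_18091 (HMMR): agccaactcaaatcgTGTTTCAATAGAGAA
circRNA_23829 (BUB1): ctctagaagataaagTCCATGAAGACAGGC
circRNA_38617 (DTL): ctaagtttgagaaagGATGGTCTTCACAAT
circRNA_38090 (EZH2): actgcttcctacatcAATAATCATGGGCCA
circRNA_07634 (EZH1): cctccagttcttcagCTTTTCATGCCACCC
circRNA_05246 (LOC110255584): ccttgttctctaaagATTGAGGACATGAAT
circRNA_05253 (LOC110255584): ccttgttctctaaagTTTCAGTTTAAATTC
Both RALGPS2 rings start at the same acceptor, exon 2, and differ in the donor they use, exon 5 or exon 4. Both rings of LOC110255584 end at the same donor, exon 4, and differ in the acceptor, exon 2 or exon 3.

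The table held 25283, 19174 and 21349 back-splice reads in 7d_1, 7d_2 and 7d_3, and 87867, 71092 and 86551 in 120d_1, 120d_2 and 120d_3. Clean reads per library were similar, at 108 ± 5.53 M (SD, n = 3) at 7d and 109 ± 7.99 M at 120d, so back-splice reads per M (1e+06) clean reads were 202 ± 22.8 at 7d and 754 ± 115 at 120d. That is a ratio of 3.73 with no overlap between ages (exact permutation test, two-sided, p = 0.1, the smallest that 3 against 3 pigs allow). A mean of 2440 ± 151 circRNAs had reads in a 7d library and 2964 ± 12.9 in a 120d library. With every library thinned to the same total of 16273 reads the numbers were 2208 ± 56.2 and 2172 ± 10.02 (exact permutation test, two-sided, p = 0.3), so with equal totals of back-splice reads the 120d libraries did not have more circRNAs. In the libraries of the older pigs 120d_2 and 120d_3 the share of valid bases after trimming was 0.947 and 0.945, against 0.961 in 120d_1 and 0.961 to 0.964 at 7d.

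Counts were scaled by TMM (trimmed mean of M values), and all values given below as normalized counts are counts on this scale. They therefore describe the level of a circRNA relative to the other circRNAs of its library, not per clean read. In the edgeR quasi-likelihood test 283 of the 3000 circRNAs (9.43%) differed by 2-fold or more with an adjusted p under 0.05. Of these DE circRNAs 191 were higher at 120d (6.37%) and 92 were lower (3.07%). In 611 circRNAs (20.4%) every 120d library lay above every 7d library, and in 336 (11.2%) every one lay below. Over all circRNAs the median log2 fold change was 0.27, and 1010 circRNAs averaged 10 normalized counts or more in the 6 libraries.

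The balance of higher against lower calls moved with the scaling and the method. It was 127 to 123 with DESeq2 size factors, 115 to 136 with the totals of the table, 111 to 140 with TMM factors from circRNAs with a mean of at least 10, 140 to 153 in the DESeq2 Wald test and 43 to 51 with all libraries thinned to the same total, with medians over all circRNAs from 0.02 to 0.11. With clean reads as the depth it was 1820 to 9, since nearly all circRNAs had more reads per clean read at 120d, and the median log2 fold change was then 1.91. Of the 92 circRNAs called lower, 29 had a log2 fold change above 0 on that scale. Without 7d_2 the calls were 103 and 56, without 7d_3 they were 121 and 66, and with the 120d library of 0.961 valid bases alone on the side of the older pigs they were 57 and 30.

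**Figure D1:**
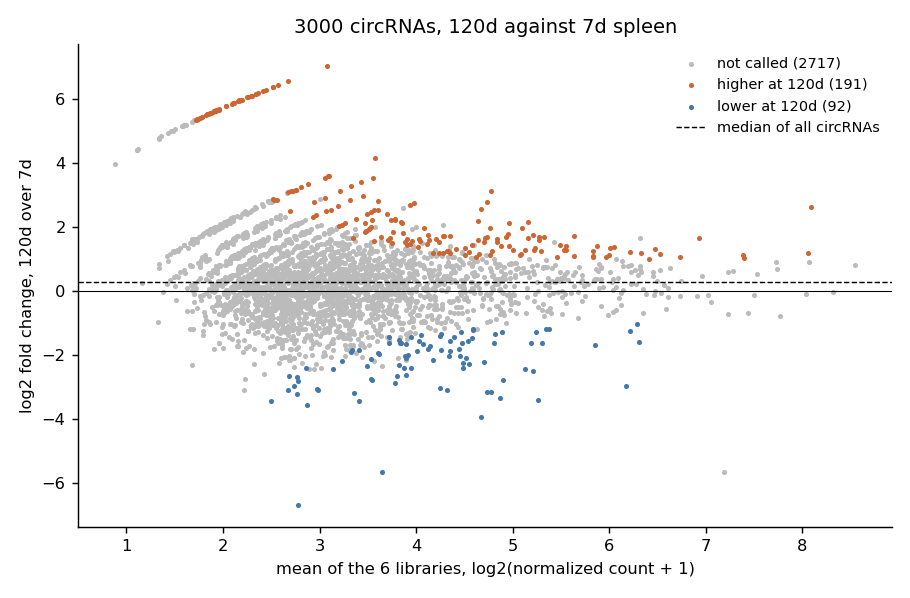
Log2 fold change of 120d over 7d against the mean normalized count of the 6 libraries for the 3000 circRNAs, with 191 called higher in orange, 92 called lower in blue and the others in grey. The dashed line is the median of all circRNAs, 0.27. The separate streak at the top holds the 68 circRNAs listed at 0 in all 3 libraries of 7d, whose fitted fold changes depend on the prior count.

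Among rings from genes of lymphocytes, 6 of B cell genes and 2 of T and NK cell genes were higher in the older pigs. Of the 10 circRNAs from B cell genes 6 rose and 0 fell at an adjusted p under 0.05, against 6.9% and 3.27% of all circRNAs, and the median log2 fold change of the list was 1.95. Of the 7 from T and NK cell genes 2 rose and 0 fell, with a median of 2.22. Summed over the list, the B cell circRNAs reached 70.4, 23.7 and 25.5 normalized counts in the 3 piglets and 169, 154 and 134 in the older pigs. In the T and NK cell list the sums were 46.9, 27.3 and 14.4 in the piglets and 129, 91.6 and 79.4 in the older pigs. The ages did not overlap in either list, and 7d_1 was the highest of the 3 piglets in both.

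CD96, a receptor of T and NK cells, gave circRNA_11685 from its exons 4 and 5 (chr13:148164225-148168420, minus strand, 264 nt). Its normalized counts were 11.7, 7.29 and 0 at 7d and 48.0, 44.1 and 42.1 at 120d, a log2 fold change of 2.78 ± 0.50 (SE, adjusted p = 0.000142). Every older pig lay above every piglet, which was part of the rule that named this ring. The spread at 120d was small beside the gap. circRNA_26470 of TOX, a nuclear factor of T cell development, stood at 5.86, 0 and 4.79 at 7d and at 17.4, 19.1 and 17.0 at 120d (log2 fold change 2.22 ± 0.58, adjusted p = 0.00711). The other 5 members, 3 from NFATC2 and 1 each from LEF1 and SATB1, had log2 fold changes from -0.05 to 3.07 and adjusted p-values from 0.0664 to 0.982.

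Among the B cell genes, all 3 rings of RALGPS2, an exchange factor for Ral GTPases, rose. circRNA_38284 went from 4.40, 0 and 0 normalized counts at 7d to 15.1, 23.2 and 16.0 at 120d (log2 fold change 3.40 ± 0.78, adjusted p = 0.00227). The shorter circRNA_38282, with the same acceptor, went from 2.93, 0 and 0 to 23.1, 8.70 and 10.7 (3.60 ± 0.85, adjusted p = 0.00272). In both, 7d_1 alone of the piglets was listed above 0, and a listed 0 can hide a single read. Each call held in 18 of 19 alternatives, and that of circRNA_38282 was lost after thinning. CD22, a B cell receptor that dampens signalling, gave circRNA_30180 from exons 5 and 6 (chr6:44826906-44827555, 531 nt). Its normalized counts were 24.9, 7.29 and 3.19 at 7d and 49.4, 34.8 and 32.0 at 120d (1.66 ± 0.41, adjusted p = 0.0050), again with 7d_1 as the highest piglet and no overlap. The adaptor BANK1 (circRNA_36034, 2.25 ± 0.64) and the nuclear factor AFF3 (circRNA_23945, 1.55 ± 0.48) also rose, with adjusted p-values of 0.0153 and 0.0274. The call of 6 B cell circRNAs was 2 without 7d_2 and 2 without 7d_3, with list medians of 1.597 and 1.85, and it was also 2 with libraries of at least 0.96 valid bases or after thinning. In the T and NK cell list 1 ring rose without 7d_2.

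A further pair of large rises was not matched to the B cell list by symbol. FCRL1 is on that list, but the gene annotated with its product has the symbol LOC100152824. circRNA_26707 lies in LOC100152824, annotated as Fc receptor-like protein 1, a surface protein of B cells (chr4:92429287-92433341, exons 7 to 11). It stood at 4.40, 3.65 and 0 normalized counts at 7d and at 27.8, 20.9 and 10.2 at 120d (2.81 ± 0.66, adjusted p = 0.00275). circRNA_24032 spans chr3:57235342-57272274 and overlaps an immunoglobulin variable segment, LOC100736878, without matching exon ends on both sides. It had 119, 60.2 and 49.5 normalized counts at 7d and 436, 608 and 359 at 120d (2.61 ± 0.78, adjusted p = 0.0453). The ages did not overlap, which was part of the rule that named it, and this call held in 7 of 19 alternative analyses. A junction inside an immunoglobulin locus can also arise from rearranged or duplicated segments, so its identity as a ring was not tested. The single plasma cell member, circRNA_21969 of ELL2, was 19.1 ± 5.73 at 7d and 10.2 ± 4.77 at 120d (-0.93 ± 0.48, adjusted p = 0.232).

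Among rings from erythroid genes, those of TFRC and SOX6 were lower in the older pigs on the TMM scale, and those of EPB41, BCL11A and UROS did not pass the test. Of 11 circRNAs 4 fell (36.4%, against 3.27% of all) and 0 rose, the median log2 fold change was -1.47, and the summed normalized counts were 215, 229.7 and 212 in the piglets and 78.2, 77.7 and 92.0 in the older pigs. On the scale of clean reads 2 rose and 2 fell, and the list median was 0.21 beside 1.91 for all circRNAs. The falls numbered 2 without 7d_1, 7d_2, 120d_1 or 120d_2 in turn, and 1 with valid bases as a covariate. The transferrin receptor TFRC, which brings iron into red cell precursors and other dividing cells, accounted for 3 of the 4.

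circRNA_11343, made of TFRC exons 9 and 10 (chr13:133986643-133987630, plus strand, 278 nt), had 27.9, 14.6 and 25.5 normalized counts at 7d and 0, 0 and 0.969 at 120d. With -5.66 ± 0.87 it was the largest fall among the called circRNAs with reads at both ages (adjusted p = 8.33e-06), and the call held in all 19 alternatives, clean reads as the depth included. circRNA_11324, made of TFRC exons 1 to 6, went from 54.2, 47.4 and 49.5 to 5.65, 9.28 and 6.78 (-2.80 ± 0.74, adjusted p = 0.0223). The 3 piglets were close to each other and far above the older pigs, yet the call held in 11 of 19 alternatives, and leaving out any 1 of the 6 libraries raised the adjusted p to between 0.0512 and 0.0803. circRNA_11322, the third ring of TFRC, fell by 3.11 ± 0.99 on the log2 scale (adjusted p = 0.0327).

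SOX6, a transcription factor needed for red cell maturation, gave circRNA_20897 from exons 10 and 11. Its normalized counts were 29.3, 82.0 and 43.1 at 7d and 3.77, 2.32 and 8.23 at 120d (-3.36 ± 0.76, adjusted p = 0.00673). The 5 rings of EPB41, a protein of the red cell membrane skeleton that other cells also use, had log2 fold changes from -0.70 to 0.38 and adjusted p-values of at least 0.510, and those of BCL11A and UROS stood at -1.65 and -1.47 with adjusted p-values of 0.106 and 0.391.

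Rings from genes of the cell cycle and DNA replication gave the largest number of falls of any list on the TMM scale. Of 67 circRNAs from 41 host genes, 13 fell and 0 rose (19.4%, against 3.27% of all), and the median log2 fold change was -1.16. Of the 54 that did not pass the test, 44 had a log2 fold change below 0 and 10 above. The summed normalized counts were 1117, 1156 and 1122 at 7d and 486, 531 and 608 at 120d, so the piglets were close together and well apart from the older pigs. On the scale of clean reads 11 rose and 1 fell, with a list median of 0.51 beside 1.91 for all circRNAs. Without 7d_2 1 rose and 8 fell, and with libraries of at least 0.96 valid bases 6 fell.

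HMMR, a spindle protein that also binds hyaluronan, gave the most abundant of these rings. circRNA_18091 joins exons 8 to 16 (chr16:60299435-60314538, minus strand, 1309 nt) and stood at 98.2, 155 and 126 normalized counts in the piglets against 7.53, 11.0 and 29.1 in the older pigs (-2.97 ± 0.51, adjusted p = 0.0010). A second ring, circRNA_18086, fell by 1.63 ± 0.40. circRNA_38617 of DTL, which directs replication factors to destruction in S phase, had 63.0, 62.0 and 59.1 in the piglets and 8.0, 6.96 and 17.0 in the older pigs (-2.50 ± 0.34, adjusted p = 1.12e-06). The piglets were nearly equal, and every older pig was far below them.

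Genes of the spindle checkpoint and the kinetochore were in the same group. circRNA_23829 of BUB1, a checkpoint kinase, went from 32.2, 16.4 and 19.2 to 4.24, 1.74 and 2.91 (-2.87 ± 0.56, adjusted p = 0.000342). circRNA_14373 of the spindle motor KIF11 went from 20.5, 31.0 and 20.8 to 3.77, 4.06 and 3.39 (-2.64 ± 0.51, adjusted p = 0.000229). circRNA_09013 of SGO1, which protects cohesion at the centromere, went from 19.1, 27.3 and 9.58 to 0, 3.48 and 4.36 (-2.80 ± 0.72, adjusted p = 0.00638). No overlap of ages was seen in any of the 3. For BUB1 and SGO1 that was part of the rule that named them, and 11.2% of all circRNAs lay below without overlap. The remaining falls were in KNL1 (circRNA_02197 and circRNA_02214), BUB1B, the condensin subunits SMC4 and NCAPG2, citron kinase CIT and the chromatin protein ATAD2, with log2 fold changes from -2.69 to -1.18.

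Genes of the E2F pathway outside the list, chosen here after their values were seen where they were not among the largest changes, were called in both directions. circRNA_10463 of TFDP2, the dimer partner of E2F factors, went from 13.2, 52.9 and 30.3 to 0.942, 4.64 and 5.81 (-3.04 ± 0.53, adjusted p = 8.07e-05). The other of the 2 rings of TFDP2 was not called. Of the 2 rings of TFDP1, its relative, circRNA_07136 fell by 2.197 ± 0.74 on the log2 scale, and of the 4 rings of RBL1, circRNA_18987 fell by 1.49 ± 0.39. On the other side stood circRNA_29923 of RBL2, a retinoblastoma family protein that holds E2F targets silent in resting cells. It went from 2.93, 0 and 6.39 to 11.3, 23.2 and 19.9 (2.45 ± 0.71, adjusted p = 0.0166), and this call held in 13 of 19 alternatives.

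**Figure D2:**
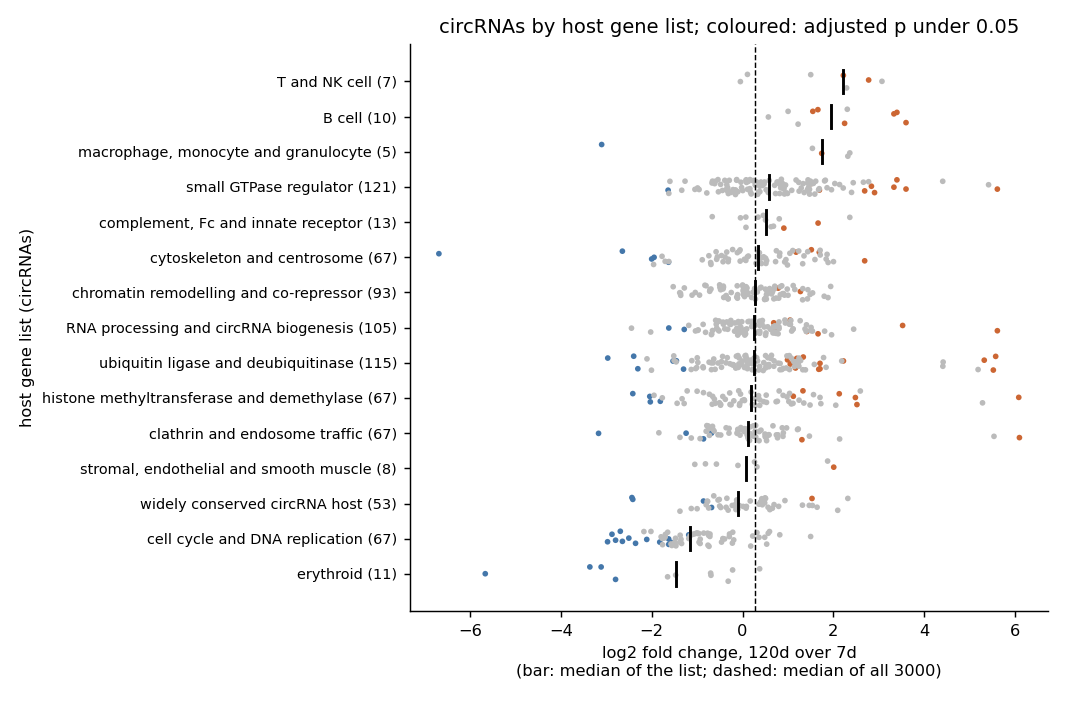
Log2 fold change of 120d over 7d for each circRNA of the host gene lists with at least 5 circRNAs, in orange or blue where the adjusted p was under 0.05 (higher or lower at 120d) and grey otherwise. Bars are list medians and the dashed line is the median of all 3000, 0.27. The B cell and T and NK cell medians, 1.95 and 2.22, lie to the right of it, and those of the cell cycle and erythroid lists, -1.16 and -1.47, to the left on the TMM scale.

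The levels of these 4 lists between and beyond both ages were read from the other libraries of the series. The cell cycle sum was 734 ± 17.4 in newborns of 1d against 1132 ± 21.0 in the 7d piglets, averaged 627 to 824 in the 4 stages from 14d to 35d, and then stood at 541 ± 61.7 (120d) and 399 ± 52.5 (180d). The erythroid sum was 152 ± 20.9 in newborns, 219 ± 9.25 in the 7d piglets, 83.8 ± 8.09 by 35d, 82.6 ± 8.14 in the 120d pigs and 59.1 ± 11.5 in the 180d pigs. Both sums had their highest stage mean at 7d on the TMM scale. The B cell sum was lowest in the 7d piglets, with 39.9 ± 26.4, had reached 129.9 ± 7.85 by 21d and 153 ± 23.3 by 35d, and was 152 ± 17.7 (120d) and 128 ± 27.0 (180d) in the older pigs. The T and NK cell sum was also lowest in the 7d piglets, 29.5 ± 16.4, and 100.2 ± 26.1 in the 120d pigs stood beside 93.6 ± 7.71 in those of 180d. Of the 8 stages, 7d held the lowest mean of both lymphocyte sums and the highest of the other 2.

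**Figure D3:**
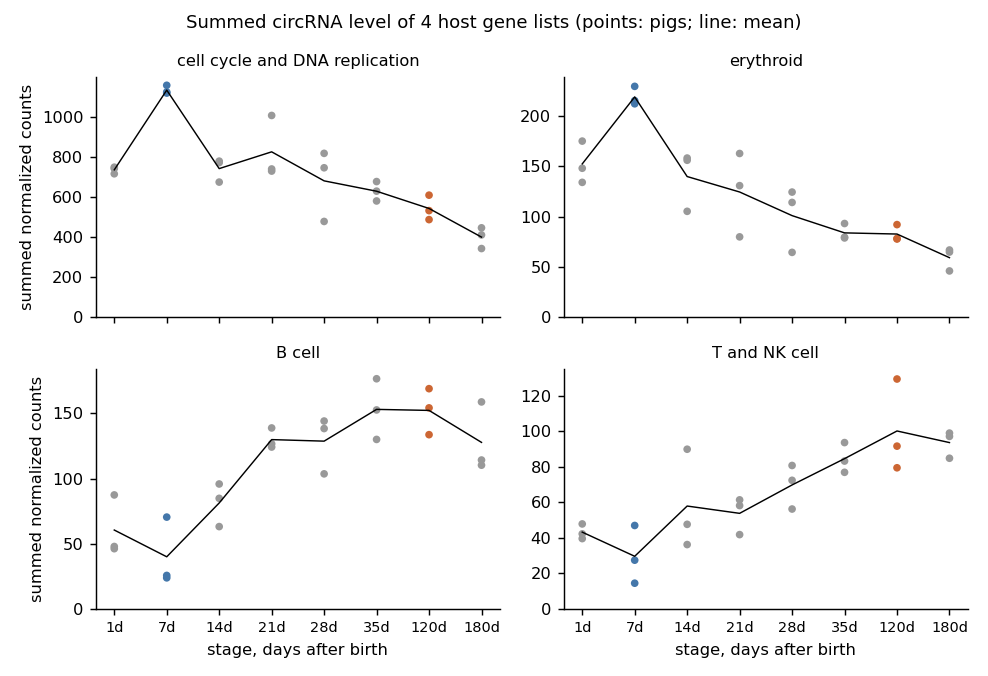
Summed normalized counts of the circRNAs of 4 host gene lists in the 24 pigs over the 8 stages, with 7d in blue, 120d in orange, the other stages in grey and a line through the stage means. The stage axis is not to scale in days. On the TMM scale the cell cycle and erythroid sums peak at 7d (1132 and 219), where the B cell and T and NK cell sums are lowest (39.9 and 29.5).

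Macrophage, monocyte and granulocyte genes held 5 circRNAs, of which 1 rose and 1 fell (20% each, against 6.9% and 3.27% of all). Both belong to cathepsins. circRNA_26897 of cathepsin S (CTSS), which trims the invariant chain of MHC class II in antigen-presenting cells, went from 23.5, 10.9 and 14.4 normalized counts to 46.1, 50.5 and 70.2 (1.74 ± 0.35, adjusted p = 0.000472). circRNA_04944 of CTSV, a lysosomal cathepsin that entered the list through CTSL, a synonym of CTSV in the pig annotation, went from 24.9, 47.4 and 30.3 to 2.82, 1.74 and 6.78 (-3.10 ± 0.50, adjusted p = 2.11e-05), and held in all 19 alternatives. Neither overlapped between ages, which for CTSV was part of a rule that named it. Which of the human cathepsins L and V it corresponds to was not settled here. The rings of SLC8A1 and ADGRE1 had log2 fold changes from 1.54 to 2.36 and adjusted p-values from 0.0645 to 0.266.

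In the list of complement, Fc and innate receptor genes 2 of 13 circRNAs rose (15.4%, against 6.9% of all), with a median of 0.51. circRNA_21182 of LOC100516957, whose product is named like the adhesion receptor ADGRE2 of myeloid cells, was at 179, 179 and 201 in the piglets and 442, 314 and 293 in the older pigs (0.91 ± 0.21, adjusted p = 0.00247). circRNA_23740 of SUSD3 was 4.35 ± 1.14 and 13.9 ± 3.33 (1.66 ± 0.57, adjusted p = 0.0499), a call kept in 3 of 19 alternatives. Stromal, endothelial and smooth muscle genes held 8 circRNAs with a median of 0.08, 1 of which rose, circRNA_00362 of UTRN, the relative of dystrophin (3.91 ± 6.77 to 17.3 ± 3.0, 2.01 ± 0.62, adjusted p = 0.0280, kept in 10 of 19). The members from megakaryocyte and stem cell genes numbered 1 and 2, and 0 passed the test. MEF2C, which is also on the B cell list, had 5.37 ± 0.543 at 7d and 11.0 ± 5.05 at 120d (adjusted p = 0.312). MLLT3 and IGF2BP3 had log2 fold changes of 2.27 ± 1.13 and -0.38 ± 0.48. None of the 8 pancreas acinar and 5 fat cell genes, markers of tissue beside the spleen, was the host of a circRNA in the table.

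Histone methyltransferase and demethylase genes held 67 circRNAs, of which 6 rose (8.96%) and 4 fell (5.97%), against 6.9% and 3.27% of all, and the list median of 0.19 was near that of all circRNAs. A ring from each catalytic subunit of the Polycomb complex PRC2 was called, 1 of 5 in EZH2 and 1 of 3 in EZH1, in opposite directions. circRNA_38090 of EZH2, the subunit of dividing cells, spans exons 2 to 8 (chr9:109411982-109431724, 872 nt) and went from 41.0, 32.8 and 27.1 to 9.89, 8.12 and 6.30 (-2.04 ± 0.39, adjusted p = 0.000202). circRNA_07634 of EZH1, the subunit found in resting cells as well, spans exons 11 and 12 (chr12:20126112-20129339, 273 nt) and went from 8.80, 0 and 0 to 17.9, 11.0 and 27.1 (2.52 ± 0.66, adjusted p = 0.00765). The first held in 17 and the second in 13 of 19 alternatives, and EZH2 stood at -0.40 on the scale of clean reads (adjusted p = 0.430). The other EZH2 rings, circRNA_38087, circRNA_38099, circRNA_38097 and circRNA_38086, stood at -1.95, -1.77, -0.62 and -0.0044 with adjusted p-values from 0.0571 to 0.996. EZH1 had 2 further rings, circRNA_07627 at 0.89 and circRNA_07638 at -1.44, and neither passed the test (adjusted p = 0.510 and 0.105).

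All 3 rings of NSD2, which places dimethyl marks on lysine residues of histone H3, fell, by 1.81 ± 0.37 (circRNA_34502), 2.03 ± 0.44 (circRNA_34504) and 2.42 ± 0.51 (circRNA_34510) on the log2 scale. circRNA_34502 was at 39.6, 29.2 and 28.7 in the piglets and 11.3, 6.96 and 9.20 in the older pigs. Its call held in 16 of 19 alternatives, and that of circRNA_34510 in 18. On the scale of clean reads neither was called, with log2 fold changes of -0.15 and -0.79. Summed over the gene, NSD2 had 74.8, 94.8 and 94.2 normalized counts at 7d and 18.4, 19.7 and 25.2 at 120d (-2.05 ± 0.26), the smallest adjusted p of all host genes that were lower (2.32e-07). The other rises were in KDM7A (1.33 ± 0.36), KDM5A (2.13 ± 0.68), PRDM4 (2.48 ± 0.83), KMT2E (1.12 ± 0.38) and KMT2A, whose circRNA_37216 was listed at 0 in the 3 piglets and had 7.75 ± 2.1 normalized counts at 120d.

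Of 93 circRNAs from chromatin remodelling and co-repressor genes 2 rose (2.15%, against 6.9% of all) and 0 fell (against 3.27%), with the median of all circRNAs, 0.27. The helicase CHD8 (circRNA_33804) went from 26.7 ± 6.55 to 65.1 ± 8.93 (1.27 ± 0.26, adjusted p = 0.000524) and the co-repressor NCOR1 (circRNA_08751) from 57.8 ± 4.48 to 99.9 ± 18.4 (0.79 ± 0.22, adjusted p = 0.0105). BAZ2B (circRNA_15831) stood at 22.8 ± 9.93 and 40.8 ± 5.87, with an adjusted p of 0.0513.

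RNA processing and circRNA biogenesis genes held 105 circRNAs, of which 7 rose and 2 fell, shares of 6.67% and 1.90% that are near the 6.9% and 3.27% of all circRNAs. circRNA_04069 of PTBP3, a splicing repressor of blood cells, went from 33.7, 41.9 and 19.2 to 91.3, 88.7 and 71.7 (1.41 ± 0.26, adjusted p = 0.000142). circRNA_35418 of CNOT6L, a deadenylase, went from 20.5, 16.4 and 12.8 to 54.6, 60.3 and 44.1 (1.66 ± 0.31, adjusted p = 0.000142). circRNA_19362 of RBM33 went the other way, from 54.2, 63.8 and 57.5 to 24, 13.3 and 18.9 (-1.62 ± 0.35, adjusted p = 0.00105), but stood at 0.056 on the scale of clean reads. The ages were apart in each of the 3. circRNA_10648 of MBNL1, a splicing factor known to promote a ring from its own transcript, was listed at 0 in the piglets and had 5.52 ± 1.34 normalized counts at 120d (adjusted p = 0.0330).

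Ubiquitin ligase and deubiquitinase genes held 115 circRNAs, with 12 that rose (10.4%) and 6 that fell (5.22%), against 6.9% and 3.27% of all, and a median of 0.26. circRNA_01497 of USP3 went from 45.4, 36.5 and 25.5 to 94.2, 91.0 and 87.7 (1.34 ± 0.24, adjusted p = 0.000131). circRNA_26932 of RNF115 went from 67.4, 71.1 and 67.1 to 159, 143 and 124 (1.05 ± 0.21, adjusted p = 0.000524). The RNF115 call held in 11 of 19 alternatives. circRNA_32031 of USP24 went from 18.9 ± 8.97 to 59.5 ± 8.01 (1.68 ± 0.35, adjusted p = 0.0010). The falls were in BARD1, the partner of BRCA1 in DNA repair (-2.40 ± 0.55), the centrosomal ligase TRIM37 (-2.31 ± 0.56), USP7, USP10, USP32 and ZRANB1.

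Small GTPase regulator genes held 121 circRNAs, of which 9 rose (7.44%, near the 6.9% of all) and 1 fell (0.826%, against 3.27%), with a median of 0.59 beside the 0.27 of all circRNAs. The RALGPS2 rings described above were 3 of the 9. circRNA_21145 of MYO9B, an unconventional myosin, went from 5.86, 5.47 and 0 to 21.7, 22 and 31.0 (2.69 ± 0.56, adjusted p = 0.00068), and its relative MYO9A (circRNA_02737) rose by 1.51 ± 0.39. circRNA_10431 of RASA2, a brake on Ras in T cells, went from 17.6, 10.9 and 12.8 to 42.8, 47.0 and 46.0 (1.69 ± 0.36, adjusted p = 0.00105). DENND4A, an exchange factor for Rab10, was the single host gene with called rings in both directions, circRNA_02611 higher and circRNA_02640 lower (-1.64 ± 0.40). The call of circRNA_02611 held in 6 of 18 alternatives and was lost when any single library of either age was left out.

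Of 67 circRNAs from clathrin and endosome traffic genes 2 rose (2.99%, against 6.9% of all) and 4 fell (5.97%, against 3.27%), with a median of 0.13. circRNA_38142 of DNM3, a dynamin that cuts vesicles from membranes, went from 46.9, 52.9 and 43.1 to 2.35, 1.74 and 11 (-3.17 ± 0.58, adjusted p = 0.000782). circRNA_30335 of AP2A1, a subunit of the clathrin adaptor, went from 108, 96.6 and 104 to 35.3, 49.9 and 45.5 (-1.24 ± 0.23, adjusted p = 0.000142), but stood at 0.41 on the scale of clean reads. circRNA_33620 of the sorting nexin SNX6 went from 52.8, 47.4 and 51.1 to 102, 114 and 159 (1.31 ± 0.24, adjusted p = 0.000142). PICALM, which helps to assemble clathrin coats, gave 2 of the falls, both under a fold change of 2 (circRNA_36761, -0.86 ± 0.27, and circRNA_36801, -0.68 ± 0.22). Another, more abundant PICALM ring, circRNA_36806, was at 273, 273 and 265 in the piglets and 268, 230 and 257 in the older pigs (-0.10 ± 0.17, adjusted p = 0.779).

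Cytoskeleton and centrosome genes held 67 circRNAs, with 4 that rose (5.97%, near the 6.9% of all) and 5 that fell (7.46%, against 3.27%). All 5 falls were rings of ALMS1, a protein of centrosomes and cilia that has 7 rings in the table. circRNA_24166, made of ALMS1 exons 18 to 22, had 16.1, 12.8 and 6.39 normalized counts at 7d and was listed at 0 in all older pigs, at least 10.01-fold lower. circRNA_24171 went from 26.4, 23.7 and 17.6 to 4.24, 1.74 and 4.36 (-2.65 ± 0.55, adjusted p = 0.00068). Summed over the gene, ALMS1 had 117, 113 and 109 normalized counts in the piglets and 23.5, 20.9 and 30.5 in the older pigs (-2.17 ± 0.29, adjusted p = 5.64e-07). ROCK1 (circRNA_31461), a kinase of actin contraction, rose by 1.18 ± 0.23, a call kept in 12 of 19 alternatives.

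Genes widely conserved as circRNA hosts held 53 circRNAs, of which 1 rose (1.89%, against 6.9% of all) and 4 fell (7.55%, against 3.27%), with a median of -0.10. circRNA_33714 of STRN3, a scaffold of the STRIPAK complex, went from 14.7, 21.9 and 6.39 to 38.6, 39.4 and 44.6 (1.53 ± 0.35, adjusted p = 0.00215). circRNA_32444, the single exon 2 of the chromodomain gene CDYL, went from 93.8, 41.9 and 36.7 to 12.2, 4.64 and 14.5 (-2.44 ± 0.52, adjusted p = 0.00331). circRNA_00989, the single exon 3 of the transcription factor FOXO3 (1436 nt), went from 14.7, 9.12 and 7.98 to 1.88, 4.06 and 0 (-2.42 ± 0.82, adjusted p = 0.0456). The remaining falls were the PICALM rings named above.

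Among circRNAs with a mean of at least 10 and no overlap between ages, the largest rises outside the groups above were in genes of varied kinds. circRNA_05015 of ZCCHC6, which adds uridines to RNA tails, went from 2.93, 0 and 0 to 17.9, 22.6 and 21.8 (4.14 ± 1.14, adjusted p = 0.0208), and lost its call without 7d_2 or 7d_3 (adjusted p = 0.0907 and 0.0887). circRNA_35471 of TMEM154, a membrane protein (chr8:76374478-76374867, exons 2 and 3), went from 5.86, 3.65 and 6.39 to 53.7, 44.7 and 43.6, with 3.11 ± 0.46 and an adjusted p of 5.6e-06. Neither age spread widely here, and the call held in all 19 alternatives. LRRK2, a kinase of lysosomal traffic that macrophages and B cells use, gave circRNA_28945, which went from 2.93, 0 and 6.39 to 16.5, 27.8 and 13.6 (2.53 ± 0.62, adjusted p = 0.00377). The remaining rises were circRNA_17692 of ZSWIM6 (2.75 ± 0.56), circRNA_19735 inside LOC106506781 without matching exon ends (3.53 ± 0.72) and circRNA_16996 of chromosome 15, where no gene is annotated (2.54 ± 0.57). In circRNA_19735 the counts were 0, 0 and 4.79 in the piglets and 24, 21.5 and 14.0 in the older pigs.

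The largest falls outside the groups were in membrane transporters and a nutrient sensor. circRNA_25535, the single exon 2 of the solute carrier gene SLC45A4 (629 nt), went from 36.6, 51.0 and 51.1 to 5.65, 4.64 and 4.84 (-3.16 ± 0.48, adjusted p = 8.22e-06) and held in all 19 alternatives. circRNA_32436 of SLC22A23 went from 29.3, 78.4 and 30.3 to 2.35, 1.16 and 4.84 (-3.94 ± 1.16, adjusted p = 0.0414) but held in 8 of 19. circRNA_23675 of NPRL3, a subunit of the GATOR1 brake on mTORC1, went from 83.6, 71.1 and 51.1 to 3.77, 5.22 and 10.2 (-3.40 ± 0.58, adjusted p = 0.000524). The ages did not overlap in any of them, which was part of the rule that chose them.

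**Figure D4:**
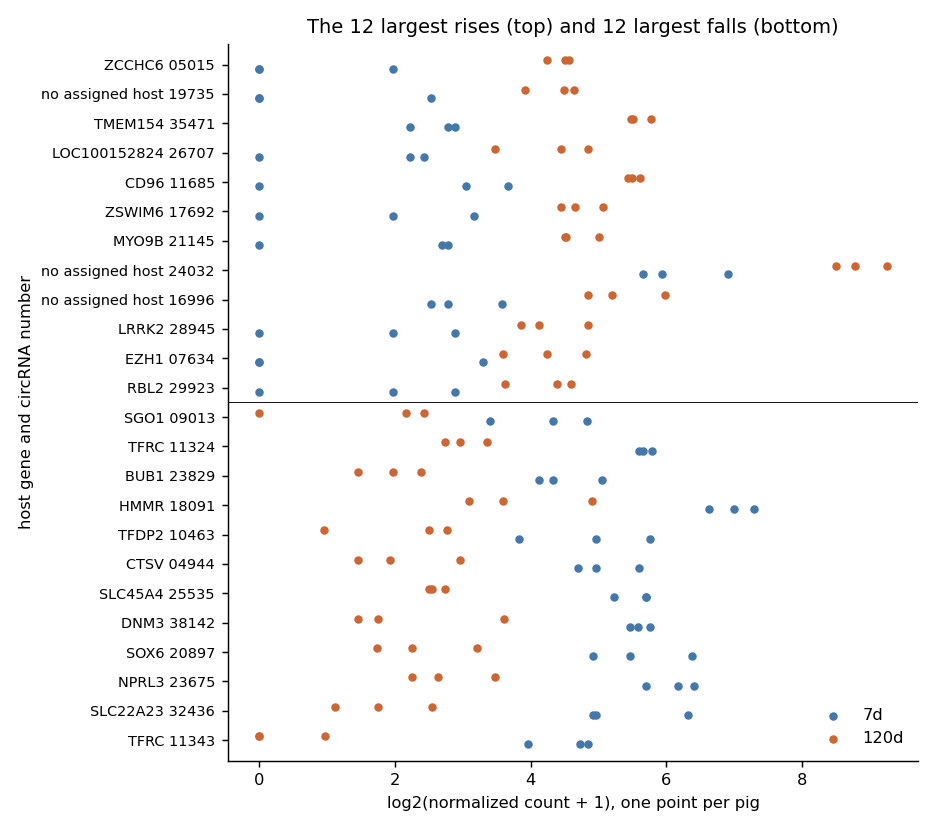
Normalized counts, as log2(normalized count + 1), of the 12 largest rises and 12 largest falls with a mean of at least 10, 1 point per pig, 7d in blue and 120d in orange. In every row the 3 pigs of one age lie on one side of the 3 pigs of the other, which was part of the rule that chose them. Many rises start from pigs listed at 0 at 7d.

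Reads were absent from 1 age for some rings. In the piglets 68 circRNAs were listed at 0 in all 3 libraries, 42 of which were called higher, whereas 1 circRNA was listed at 0 in all older pigs, the ALMS1 ring named above. The table lists no count of 1, so a 0 can hide a single read, and a stage listed at 0 was given a floor of 7 reads over its 3 libraries. Against that floor circRNA_34762 of ARAP2, a regulator of Arf GTPases, was at least 3.99-fold higher at 120d, with 23.5, 13.9 and 7.27 normalized counts. circRNA_01020 of CDK19, a kinase of the Mediator complex, was at least 2.92-fold higher, with 10.4, 6.96 and 15. circRNA_27351 of PALMD was at least 2.65-fold higher, with 9.42, 8.12 and 12.1. The number of such circRNAs moves with depth, and the 7d libraries held fewer back-splice reads.

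The most abundant circRNAs rose or did not pass the test on the TMM scale. circRNA_01598 of SLTM, a nuclear RNA-binding protein, was at 237, 246 and 327 in the piglets and 438, 439 and 553 in the older pigs, 0.82 ± 0.18 with an adjusted p of 0.00105, under the minimum of a 2-fold change. circRNA_20634 of PHF21A, a reader of unmodified histone H3, was at 148, 195 and 144 and then at 368, 367 and 368 (1.18 ± 0.19, adjusted p = 1.78e-05), and its log2 fold change was from 0.88 to 0.95 in 4 alternatives, under the minimum. circRNA_05253 of the uncharacterized LOC110255584 was at 292, 379 and 299 and at 298, 337 and 304 (-0.05 ± 0.18, adjusted p = 0.935). The study followed up circRNA_21767 by RT-qPCR over the stages, reporting a close association with SIT1, and by luciferase reporter assays. Those assays were not compared with the values here. This circRNA comes from PAPD4, a poly(A) polymerase of the cytoplasm. It was at 14.7, 5.47 and 0 in the piglets and 10.8, 11.6 and 17.9 in the older pigs (0.95 ± 0.55, adjusted p = 0.302), so the ages overlapped, and it was called higher without 7d_1 (adjusted p = 0.0470) and on the scale of clean reads (0.00020).

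Summing the rings of each host gene gave 133 host genes that were higher (7.96% of 1671) and 79 that were lower (4.73%). STK17A, a kinase linked to apoptosis, had the smallest p of the higher ones, with 55.7, 71.1 and 47.9 normalized counts at 7d and 181, 184 and 183 at 120d (1.66 ± 0.22, adjusted p = 4.59e-07). CEP63, a centrosome protein, went from 136, 135 and 136 to 293, 285 and 289 (1.09 ± 0.18), with pigs of an age nearly equal. OSBPL9, a lipid transfer protein, went from 4.40, 18.2 and 14.4 to 49.0, 46.4 and 76.0 (2.25 ± 0.36), and 3 of its 4 rings were called. Among the lower ones the growth factor receptor IGF1R, with 1 ring, went from 99.7, 74.7 and 86.2 to 27.3, 20.9 and 32.0 (-1.70 ± 0.25, adjusted p = 2.19e-06). ATE1, which adds arginine to protein ends, went from 114, 91.2 and 133 to 34.8, 32.5 and 28.6 (-1.82 ± 0.26), and all 4 of its rings fell. SLC7A1, a carrier of arginine and lysine, fell by 2.25 ± 0.39. PRPSAP2 had 4 of 10 rings called higher. Of the 230 host genes with a called ring 18 had at least 2, and 1 of these, DENND4A, had both directions. The higher call of DENND4A held in 6 of 18 alternatives.

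Whether older pigs favour other rings of the same gene was tested in the 612 host genes with at least 2 rings, by the change of each ring relative to its host. No host gene passed edgeR's Simes test at an adjusted p under 0.05 (0 of 612, 0%), with 35 (5.72%) at an unadjusted p under 0.05. By the F test 7 hosts (1.14%) passed at an adjusted p under 0.05. They were LOC110255584, ST7L, EZH1, UHRF2, ULK2, DENND4A and ZCCHC6. Of the 1784 single circRNAs 0 passed. With DESeq2 size factors, table totals or TMM factors from circRNAs with a mean of at least 10, 1 host passed the Simes test. The nearest to passing it in the main fit was LOC110255584, with an adjusted Simes p of 0.0508. Its circRNA_05246, which shares the donor of circRNA_05253 but starts an exon earlier, made up 24.9%, 26.2% and 28.9% of the 265, 282 and 263 reads of the gene at 7d and 9.18%, 11.7% and 12.3% of 697, 658 and 715 at 120d. The level of circRNA_05246 went from 96.7, 135 and 121 to 30.1, 44.7 and 42.6 normalized counts (-1.58 ± 0.25, adjusted p = 1.25e-05) while that of its partner stayed within -0.05 ± 0.18. In DENND4A (adjusted p = 0.0805) circRNA_02611 made up 0% of the reads at 7d and 25.4%, 18.2% and 12.7% at 120d. The next by the Simes test were ALMS1, CDK19, ST7L and ARAP2, with adjusted Simes p-values from 0.113 to 0.138. In ST7L circRNA_27150 made up 0%, 18.2% and 0% of 11, 11 and 9 reads at 7d and 56.5%, 60.7% and 69.0% of 23, 28 and 29 at 120d.

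The circRNAs called in 120d vs. 7d were then read in 180d vs. 1d, which shares no pig with it. Of the 191 higher ones 176 (92.1%) had a log2 fold change above 0 there, against 56.5% of all circRNAs, and 63 were called higher, which is 33% of the 191 and 35.6% of the 177 called higher in 180d vs. 1d (5.9% of all). Of the 92 lower ones 88 (95.7%) were below 0, against 43.5% of all, and 44 were called lower, 47.8% of the 92 and 43.1% of the 102 called lower there (3.4% of all). None was called in the opposite direction. For the higher ones the median log2 fold change was 1.10 there against 2.02 in 120d vs. 7d. For the lower ones it was -1.76 against -2.04. The first value of each pair comes from libraries outside the 120d vs. 7d contrast, which still shared its scaling and estimate of spread. CD96 (circRNA_11685) stood at 3.88 in 180d vs. 1d, TMEM154 (circRNA_35471) at 1.59 and TFRC (circRNA_11343) at -3.49, whereas EZH1 (circRNA_07634) stood at -0.15 with an adjusted p of 0.93 and TOX (circRNA_26470) at 0.18. Between 120d and 180d 0 of the 283 were called at all. The share called there over all circRNAs was not counted, so this 0 does not set the 283 apart.

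Over the 8 stages, in order of age, the median of the 191 higher circRNAs was 9.19, 5.11, 12.1, 14.1, 14.8, 15.8, 20.5 and 18.4 normalized counts. That of the 92 lower ones was 16.3, 25, 13.1, 13.1, 11.4, 7.77, 6.42 and 4.86. The difference between 7d and 120d chose these circRNAs, so the values at these 2 ages are the extremes to be expected from the rule. The other stages entered the choice only through the scaling and the shared estimate of spread. By 35d both medians stood nearer to 120d than to 7d. TFRC (circRNA_11343) had already gone from 22.7 ± 7.09 at 7d to 7.87 at 14d and 1.45 at 35d, and TMEM154 (circRNA_35471) from 5.30 ± 1.45 to 24.4 and 39.3.

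Rings that rose were shorter than those that fell. The median summed exon length was 324.5 nt in the 170 higher circRNAs with a known exon chain, 629 nt in 89 lower ones and 431 nt in all 2839, and 1 of the 170 (0.588%) and 10 of the 89 (11.2%) were a single exon, against 3.95% of all. Across 946 circRNAs with a mean of at least 10 over the series, the log2 fold change and the length had a Spearman correlation of -0.34, and with the GC content of the ring -0.08. These are correlations across circRNAs that share the 6 libraries and are given as a description. The quartiles from short to long had median log2 fold changes of 0.71, 0.42, 0.29 and -0.13. Rings of up to 400 nt held 41.5%, 43.6% and 41.2% of the reads at 7d and 49.1%, 51.0% and 51.2% at 120d, without overlap (exact permutation test, two-sided, p = 0.1, the smallest possible).

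The shift with length was not measured within single lists. Over all members the median length was 409 nt in the cell cycle list and 796 nt in the erythroid list. It was 458 nt in the B cell list and 660 nt in the T and NK cell list, beside 431 nt for all circRNAs. In an analysis added after the data were seen, TMM factors were computed within each quartile of length. It gave 172 circRNAs higher and 78 lower, and kept 149 of the 191 higher and 71 of the 92 lower calls. The cell cycle list had 13 falls and 0 rises with a median of -1.26, the erythroid list 4 falls and the B cell list 6 rises. The rises in the RNA processing list went from 7 to 4. Both the length of rings recovered and the share of valid bases moved with age, and their part in the shift was not tested.

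**Figure D5:**
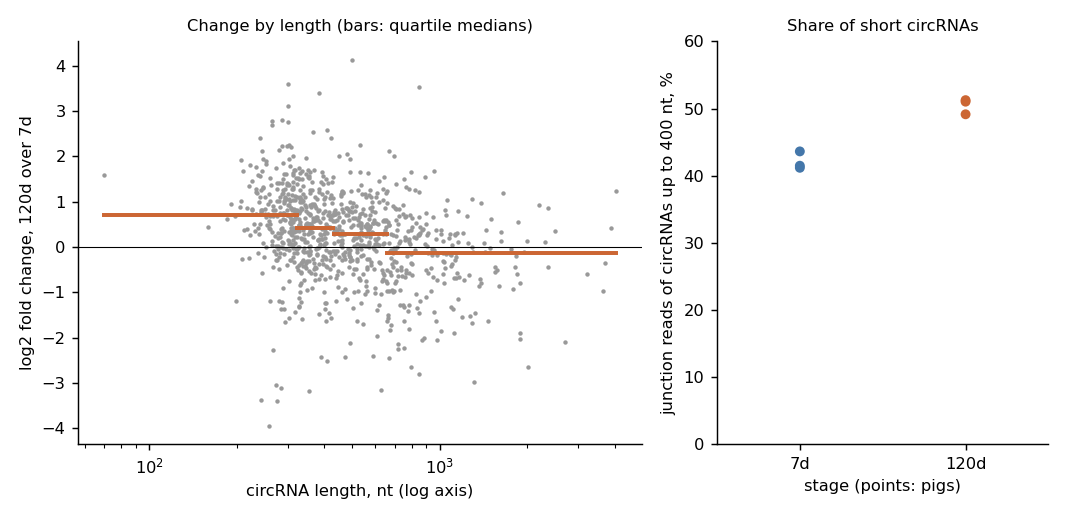
Left, log2 fold change of 120d over 7d against the summed exon length of the ring on a log axis, for 946 circRNAs with a mean of at least 10 over the series and a known exon chain. Orange bars give the median of each length quartile, 0.71, 0.42, 0.29 and -0.13 from short to long. Right, the share of back-splice reads from rings of up to 400 nt in each pig, 41.2% to 43.6% at 7d and 49.1% to 51.2% at 120d.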

How the data were processed

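RNA of 24 spleens was sequenced, 1 library per pig. The deposited counts are back-splice reads per circRNA and library, not normalized, which the authors made from reads aligned to Sscrofa11.1 with BWA and called with CIRI2 at GT-AG signals. FastQC, cutadapt and TopHat2 are also named in the submitters' processing notes. The rule that chose the 3000 circRNAs is not given in the sources used here. For the libraries the labels name RNeasy and TruSeq Stranded kits, whereas the methods of the paper name TRIZOL, RNase R and NEBNext. Which was used is unsettled. A digestion with RNase R would alter how the reads of rings relate to the clean reads. Of 72000 counts 8.72% were 0 and none was 1. Table totals cover a part of each library and are no sequencing depth. Clean reads and valid bases come from the supplementary read statistics. Precision is limited by depth, with 19174 to 25283 reads in the 7d libraries and a biological coefficient of variation of 0.300 between pigs. The floors for a stage listed at 0 cover counting error only.

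Counts were fitted in R 4.3.3 by edgeR 4.0.16, which loads limma 3.58.1 (TMM, estimateDisp, robust glmQLFit, glmQLFTest, two-sided), over all 24 libraries with a coefficient per stage, and the contrast 120d minus 7d was taken. P-values were adjusted by Benjamini-Hochberg over the 3000 circRNAs, the 1671 host genes or the 612 hosts of diffSpliceDGE. A call needed a 2-fold difference or more besides an adjusted p under 0.05, members of lists an adjusted p under 0.05 alone. Errors are the SD over 3 pigs or, for log2 fold changes, an approximate SE. That SE is the absolute log2 fold change over the square root of the F statistic of the test. A normalized count is the count over the effective library size, times the geometric mean of these sizes. The floor for a stage listed at 0 is 7 counts, the 95% limit (6.43) for 3 libraries that may each hide 1 read.

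Hosts, exons, lengths and junctions came from the RefSeq annotation and genome of Sscrofa11.1, the build of the files. Both ends matched exon ends of 1 gene, within 1 base, in 2843 of 3000 circRNAs, 19 lay in no gene, and all had GT-AG signals. Python 3.11.15 with pandas 2.3.3 annotated the rings and matplotlib 3.10.9 drew the figures. The scripts were tested on simulated counts. The comparison, the 20 gene lists and the rules were chosen with earlier results of these data known. The text names the 12 rises and 12 falls of largest size among called circRNAs with a mean of at least 10 over the 6 libraries and no overlap between ages, up to 4 listed at 0 in a stage, the 6 with the highest mean, 3 per list and 6 usage hosts with the smallest p, 8 host genes in each direction, and circRNA_21767. Other members that passed in a list, further rings of a named gene and circRNA_30386 were named after their values were seen. Alternatives were DESeq2 1.42.0 size factors and Wald test, clean reads or table totals as depth, filterByExpr, the 6 libraries alone, a replicate block, valid bases (at least 0.96, or as a covariate), library GC, thinning, leaving out each library, and 2 added after seeing the data (TMM from circRNAs with a mean of at least 10, and TMM per quartile of length). The scalings were applied to usage after the data were seen.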

Additional observations from a re-analysis of the deposited data

How the results depend on the processing

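Of 191 circRNAs called higher and 92 called lower, the counts were 127 higher with DESeq2 size factors, 115 with table totals, 111 and 140 (higher and lower) with TMM factors from circRNAs with a mean of at least 10, 153 lower in the DESeq2 Wald test, 57 and 30 with libraries of at least 0.96 valid bases, 87 and 38 with valid bases as a covariate, 43 and 51 after thinning, and 1820 and 9 with clean reads as the depth. Leaving out 1 library gave 103 to 161 higher and 56 to 76 lower. Host genes, 133 higher and 79 lower, gave 1167 and 6 with clean reads, 60 and 37 with libraries of at least 0.96 valid bases, 72 and 48 with the covariate, 78 higher with table totals, 44 after thinning and 72 with TMM from a mean of at least 10, and 100 to 135 higher and 64 to 70 lower when 1 library was left out. Usage (Simes test), with 0 hosts called, gave 1 with DESeq2 size factors, table totals, filterByExpr or TMM from a mean of at least 10. It gave 0 with clean reads, 3 with the 6 libraries alone and 0 to 3 without 1 library, 3 of them without 7d_1. The 107 circRNAs called the same way in 180d vs. 1d were 887 with clean reads, 18 with at least 0.96 valid bases, 57 with the covariate, 48 after thinning, 71 with TMM per quartile of length and 77 to 95 without 1 library. The difference in circRNAs with reads, 524, was -36.7 after thinning. Thinning discards reads and the filter on valid bases leaves 1 library at 120d. The cause of the other shifts was not tested.

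Single circRNAs changed sign with clean reads as the depth in circRNA_05253 (1.63), circRNA_36806 (1.57), circRNA_21969 (0.67), circRNA_17233 (1.10), circRNA_37799 (1.22), circRNA_19362 (0.056), circRNA_30335 (0.41), circRNA_36761 (0.80) and circRNA_05246 (0.083). Others did so when 1 library was left out (circRNA_05253, -0.11 to 0.084, above 0 without 7d_2), with at least 0.96 valid bases (circRNA_36806, 0.012) and after thinning (circRNA_16815, -2.64). Same-numbered pigs of both ages shared only a number, with correlations of their deviations of 0.04, -0.02 and 0.01, and with the number as a replicate block 177 circRNAs were higher and 84 lower, 125 host genes higher and 77 lower, and 0 usage hosts were called.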

Other observations

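circRNA_30386 had the largest log2 fold change among circRNAs that were not called and had reads at both ages, -5.67 ± 2.1 (adjusted p = 0.103), and was chosen after its values were seen. It spans chr6:56457307-56554190 and crosses the end of an annotated gene, and its identity as a ring was not tested. Its normalized counts were 0, 436 and 418 in 7d_1, 7d_2 and 7d_3 and 3.30, 6.38 and 6.78 in the older pigs. It was listed at 0 in 5 of the 24 libraries, reached 447 in the 18 libraries up to 35d, and lay between 3.30 and 12 in the 6 libraries of 120d and 180d.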
